A study of Mus musculus with 24 samples.

Results

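St14, Tmprss2, Spint1 and Spint2 encode a small system of proteases and inhibitors at the surface of epithelial cells. St14 (matriptase) and Tmprss2 are type II transmembrane serine proteases, made as inactive precursors that are cut to become active. Spint1 (HAI-1) and Spint2 (HAI-2) are membrane proteins whose Kunitz domains block matriptase and related proteases. In the mouse embryo these inhibitors are known for restraining matriptase in epithelia, and matriptase is known for its role in epithelial barriers. The 4 genes were chosen by name for this shared function, with their lower signal in Flk1+ cells already known, so their levels and differences are given as a description with no test. Each had 1 probe, so they account for 4 of 20280 probes and 4 of 8973 named genes.

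The arrays compared cells sorted from murine embryoid bodies, the aggregates in which differentiating embryonic stem cells form early cell types, by whether they carried Flk1, the receptor encoded by Kdr that marks early mesoderm and its vascular and blood lineages. There were 6 groups of 4 samples, 24 arrays in all: Flk1+ and Flk1- cells at 84 h, at 95 h and at 8 d of differentiation. Each array set sample RNA, labelled with Cy5, against a common reference from homogenised whole mouse pups, labelled with Cy3, and every value below is a log2 ratio of sample to reference with the median of each array at 0. The labels number the samples 1 to 4 and do not say whether they were separate cultures, so intervals and p-values measure only the spread between these samples. Each gene has 1 estimate of spread shared by all 6 groups. An interval therefore does not follow the spread of the groups it compares. The stem cell line and its genotype are not given in the sources used here.

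Kdr itself followed the sort, with group means of 0.98, 1.85 and 1.58 in Flk1+ cells at 84 h, 95 h and 8 d against -0.92, -1.08 and -0.31 in Flk1- cells, and no overlap at any time. Its values in Flk1+ cells at 84 h varied widely, from 0.04 to 1.80 (SD 0.79). The SDs of Kdr in the other groups were 0.04 to 0.21. Flk1+ arrays 2 and 4 at 84 h had the widest spread of values over all features, with probes of 1 gene averaged (SD 0.97 on both, 0.68 to 0.84 on the other 84 h arrays). These arrays and Flk1- array 4 at 84 h were found apart in earlier work on these data. Mean r with the other arrays of the group was 0.681 and 0.734 for Flk1+ arrays 2 and 4, beside 0.731 and 0.745 for arrays 1 and 3. For Flk1- array 4 it was 0.882, beside 0.929 to 0.935 for the rest of its group. Over the 95 h arrays of both sorts it ran from 0.73 to 0.827, so low r was not particular to the 3 arrays. The arrays at 8 d had a narrower spread than the others, with SDs of 0.55 to 0.62. Results that rest on the 3 arrays are given with and without them. These were bulk RNA samples, in which fewer cells of a type and less RNA per cell cannot be told apart.

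All 4 genes had a lower mean in Flk1+ than in Flk1- cells at 84 h, at 95 h and at 8 d. Every Flk1+ array lay below every Flk1- array for 3 of the 4 genes at 84 h and at 95 h, and for all 4 at 8 d. The same was so for 8.6% of all features at 84 h, 2.67% at 95 h and 6.89% at 8 d; because the sort contrast was in view when the genes were chosen, nothing is read from the counts against these shares. The median difference of the 4 genes was -1.40 at 84 h, -1.33 at 95 h and -0.91 at 8 d, beside medians over all features within 0.01 of 0. This decline depended on the scaling of the arrays. With quantile normalization the differences at 84 h and 8 d were -1.51 and -1.24 for St14 and -1.16 and -1.06 for Spint2. They were -1.08 and -1.27 for Spint1 and -0.62 and -1.41 for Tmprss2, larger at 8 d than at 84 h.

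**Figure D1:**
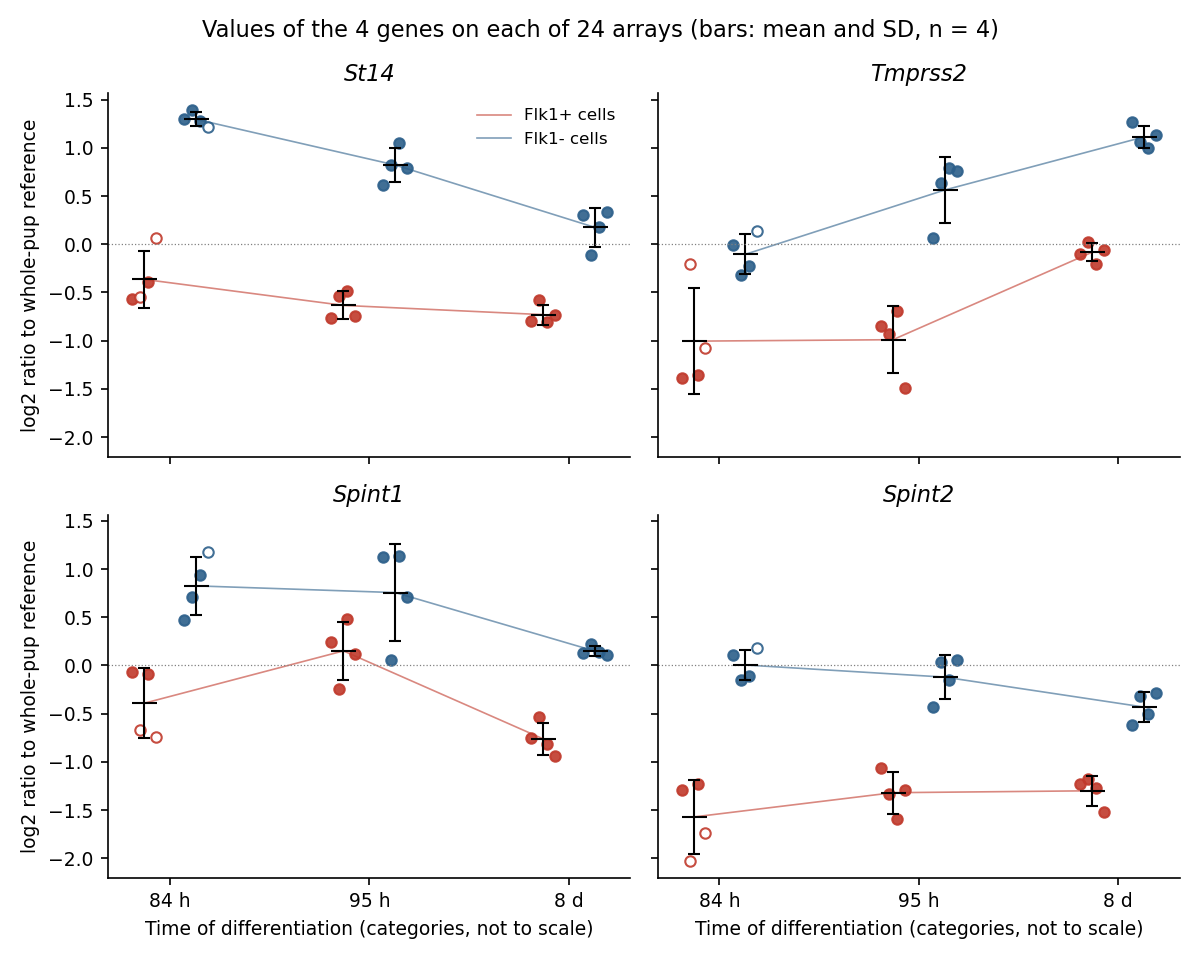
Log2 ratio to the pup reference (vertical axis) of St14, Tmprss2, Spint1 and Spint2 on each of the 24 arrays, by sort and time (horizontal axis), with the mean and SD of each group of 4 as bars and the 3 arrays apart at 84 h as open circles. St14 in Flk1- cells steps down from 1.30 to 0.18 between 84 h and 8 d, while Tmprss2 in the same cells steps up from -0.10 to 1.11.

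St14 had its highest level in Flk1- cells at 84 h. The 4 arrays read 1.30, 1.39, 1.27 and 1.22 there, a mean of 1.30 ± 0.07 (SD, n = 4). At 95 h the Flk1- arrays read 0.61, 0.82, 1.05 and 0.80, and at 8 d 0.31, -0.11, 0.18 and 0.33. The 3 Flk1- groups did not overlap, so the level of the protease was lower at each later time. In Flk1+ cells the arrays read -0.57, -0.55, -0.40 and 0.06 at 84 h, -0.77, -0.54, -0.48 and -0.75 at 95 h, and -0.80, -0.58, -0.81 and -0.73 at 8 d. The Flk1+ groups overlapped their neighbours in order of level, and the 84 h group reached up to the range of Flk1- cells at 8 d through array 4 alone.

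The St14 difference, Flk1+ minus Flk1-, was -1.66 at 84 h (95% interval -1.93 to -1.39), which is 3.16-fold higher in Flk1- cells. It was -1.46 at 95 h (-1.73 to -1.18) and -0.91 at 8 d (-1.18 to -0.63). Within Flk1- cells St14 was lower by a difference of -0.48 between 84 h and 95 h (-0.75 to -0.20) and by a further -0.65 between 95 h and 8 d (-0.92 to -0.37). The same steps in Flk1+ cells were -0.27 (-0.54 to 0.00) and -0.10 (-0.37 to 0.18), both with overlapping arrays. The narrowing of the sort difference with time thus lay mostly on the Flk1- side. With quantile normalization, which gives all arrays 1 spread, the sort differences were -1.51, -1.31 and -1.24. The steps were then -0.50 and -0.53 in Flk1- cells and -0.29 and -0.46 in Flk1+ cells, so the difference still narrowed, and by less.

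Tmprss2, a protease known for its control by androgens in prostate and for cutting viral surface proteins, ran the other way in time. In Flk1- cells its arrays read -0.01, -0.32, -0.23 and 0.14 at 84 h, 0.06, 0.63, 0.79 and 0.76 at 95 h, and 1.27, 1.06, 0.99 and 1.13 at 8 d. The 8 d arrays all lay above the 95 h arrays, while array 1 at 95 h fell within the range at 84 h. In Flk1+ cells they read -1.38, -0.20, -1.36 and -1.08 at 84 h, -0.85, -0.93, -0.69 and -1.49 at 95 h, and -0.10, 0.03, -0.20 and -0.06 at 8 d. Array 2 at 84 h, one of the 3 set apart, was the highest of its group and the only Flk1+ array of that time within the Flk1- range.

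The Tmprss2 difference, Flk1+ minus Flk1-, was -0.90 at 84 h (95% interval -1.35 to -0.46) and -1.19 without the 3 arrays. At 95 h it was -1.55 (-2.00 to -1.11), a 2.93-fold higher signal in Flk1- cells, and at 8 d -1.20 (-1.64 to -0.75). The change from 95 h to 8 d was 0.91 in Flk1+ cells (0.46 to 1.35) and 0.55 in Flk1- cells (0.10 to 1.00), with no overlap in either sort. From 84 h to 95 h it was 0.67 in Flk1- cells (0.22 to 1.11), with overlap, and 0.02 in Flk1+ cells (-0.43 to 0.46), or 0.38 without the 3 arrays. Flk1+ cells at 8 d had a mean of -0.08, close to the -0.10 of Flk1- cells at 84 h, and the ranges of these groups overlapped.

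Spint1, the inhibitor HAI-1, varied between replicates at 84 h and 95 h (SD 0.30 to 0.51 in these groups) and little at 8 d (0.05 and 0.17). In Flk1- cells its arrays read 0.48, 0.71, 0.94 and 1.18 at 84 h, 1.12, 0.06, 1.14 and 0.71 at 95 h, and 0.13, 0.22, 0.14 and 0.11 at 8 d. In Flk1+ cells they read -0.07, -0.67, -0.09 and -0.74 at 84 h, 0.24, -0.24, 0.49 and 0.12 at 95 h, and -0.75, -0.54, -0.81 and -0.94 at 8 d. At 84 h the 2 lowest Flk1+ arrays were numbers 2 and 4 and the highest Flk1- array was number 4, which are the 3 arrays set apart. Array 2 was the lowest of both sorts at 95 h, and the Flk1- value of 0.06 lay inside the Flk1+ range.

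The Spint1 difference, Flk1+ minus Flk1-, was -1.22 at 84 h (95% interval -1.66 to -0.77), and -0.79 without the 3 arrays. It was -0.61 at 95 h (-1.05 to -0.16), with overlapping arrays, and -0.91 at 8 d (-1.35 to -0.47), without overlap. Both intervals use the same SE of 0.21, from the spread shared by all 6 groups. The SDs of the groups themselves were 0.30 and 0.51 at 95 h and 0.17 and 0.05 at 8 d. In Flk1+ cells Spint1 stood highest at 95 h: the difference from 84 h was 0.54 (0.10 to 0.99), but 0.23 without the 3 arrays, and that from 95 h to 8 d was -0.91 (-1.36 to -0.47) with no overlap. In Flk1- cells the means at 84 h and 95 h, 0.83 and 0.76, differed by less than their spread, and the mean at 8 d was 0.15.

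Spint2, the inhibitor HAI-2, was low in Flk1+ cells at every time. Its Flk1+ arrays read -1.29, -2.03, -1.23 and -1.74 at 84 h, -1.06, -1.34, -1.59 and -1.29 at 95 h, and -1.23, -1.18, -1.27 and -1.52 at 8 d. Its Flk1- arrays read 0.10, -0.15, -0.11 and 0.18 at 84 h, -0.44, 0.04, -0.15 and 0.06 at 95 h, and -0.62, -0.31, -0.50 and -0.29 at 8 d. The highest of the 12 Flk1+ values, -1.06, was below the lowest of the 12 Flk1- values, -0.62, so for this gene the sorts were apart across all times. Neighbouring times overlapped within each sort.

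The Spint2 difference, Flk1+ minus Flk1-, was -1.58 at 84 h (95% interval -1.91 to -1.24), a 2.99-fold higher signal in Flk1- cells, and -1.21 without the 3 arrays. It was -1.20 at 95 h (-1.53 to -0.87) and -0.87 at 8 d (-1.20 to -0.53). With quantile normalization the 3 differences were -1.16, -1.10 and -1.06, nearly level over time. The intervals of all 4 steps between times within a sort included 0: in Flk1+ cells they were 0.25 and 0.02, and in Flk1- cells -0.13 and -0.31.

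**Figure D2:**
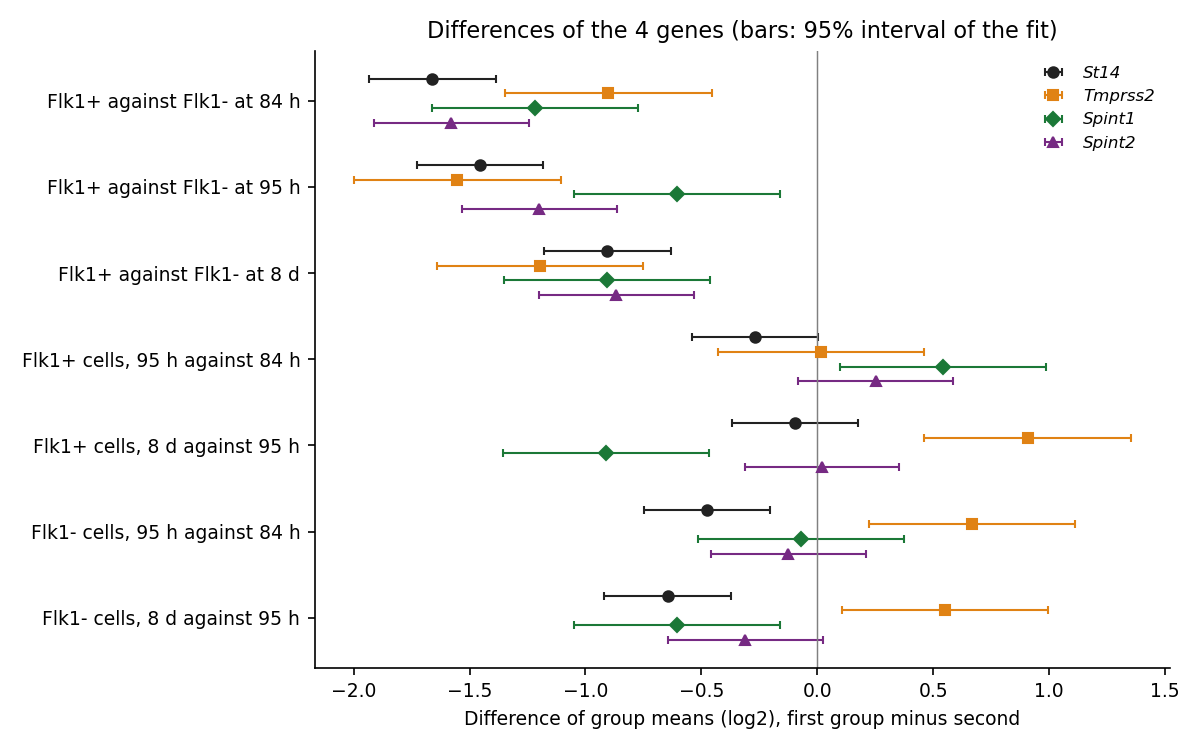
Differences in log2 ratio (horizontal axis) for St14, Tmprss2, Spint1 and Spint2 in the 3 sort comparisons and the 4 comparisons between times, with 95% intervals as bars. All 12 sort differences lie below 0, from -1.66 for St14 at 84 h to -0.61 for Spint1 at 95 h, and the time differences of Tmprss2 and St14 in Flk1- cells point in opposite directions.

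Because all ratios share the pup reference, the difference between 2 genes on 1 array can be followed across groups even though their levels cannot be set against each other. Tmprss2 minus St14 in Flk1- cells had a mean of -1.40 at 84 h, -0.26 at 95 h and 0.94 at 8 d. The step was 1.14 (95% interval 0.64 to 1.64) and then 1.20 (0.70 to 1.70), with no overlap at either step. In Flk1+ cells the same measure went from -0.64 and -0.36 to 0.65, and the step from 95 h to 8 d was 1.00 (SE 0.24), again with no overlap. Tmprss2 was thus higher relative to St14 at 8 d than at 95 h in both sorts.

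St14 minus Spint2, the protease against HAI-2, differed little between sorts: Flk1+ minus Flk1- was -0.08 at 84 h (95% interval -0.55 to 0.39), -0.26 at 95 h (-0.73 to 0.22) and -0.04 at 8 d (-0.51 to 0.43). At 84 h this measure moved to -0.60 without the 3 arrays. St14 minus Spint1 showed a dip in Flk1+ cells at 95 h, with means of 0.03, -0.79 and 0.03 over the 3 times, beside 0.47, 0.07 and 0.03 in Flk1- cells. The step down from 84 h in Flk1+ cells was -0.81, or -0.38 without the 3 arrays. The step up from 95 h to 8 d in Flk1+ cells was 0.82 (0.23 to 1.40), with no overlap. Over the same step Tmprss2 minus Spint1 was higher by 1.82 (1.08 to 2.55) in Flk1+ cells and 1.16 (0.42 to 1.89) in Flk1- cells.

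**Figure D3:**
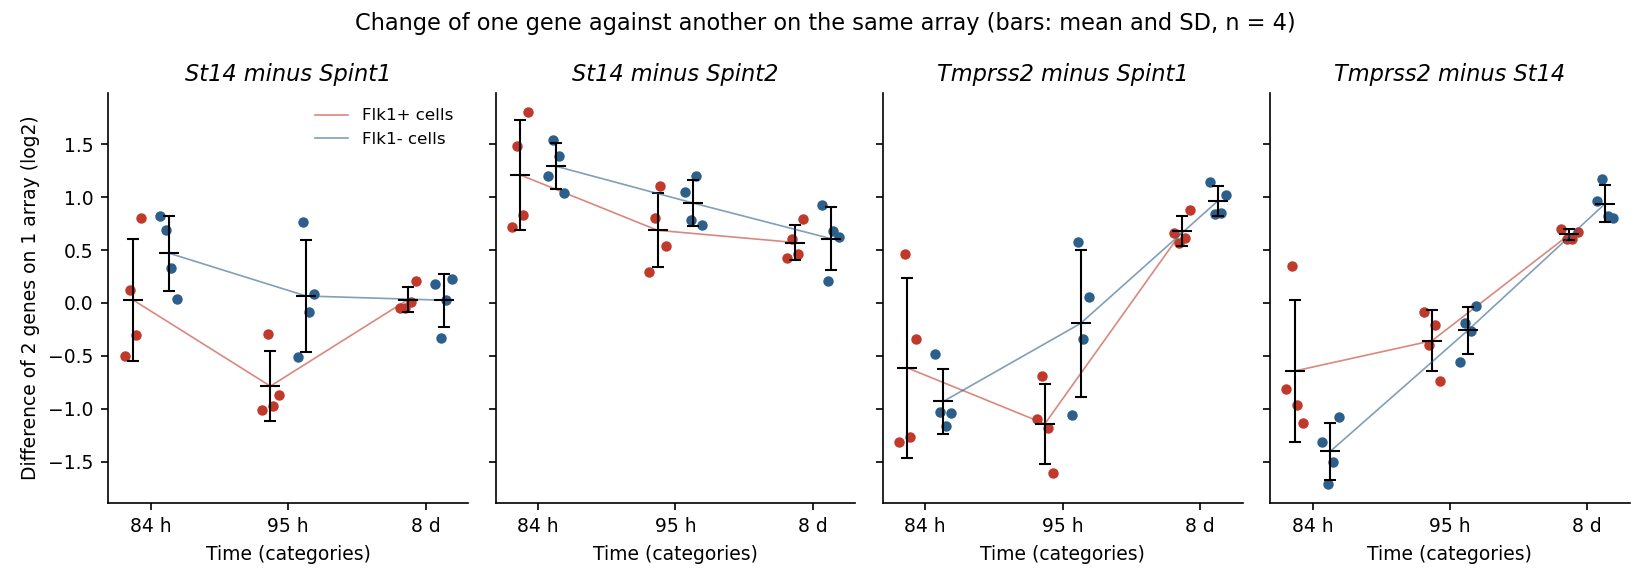
Difference in log2 ratio between pairs of genes on the same array (vertical axis) by sort and time (horizontal axis), with points for arrays and bars for the mean and SD of 4. Tmprss2 minus St14 climbs from -1.40 to 0.94 in Flk1- cells, and St14 minus Spint1 dips to -0.79 in Flk1+ cells at 95 h.

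The stretch just before the RefSeq start of both inhibitor genes is shown because HAI-1 and HAI-2 shared their direction in the sort but parted in time in Flk1+ cells: from 95 h to 8 d the change of Spint1 minus Spint2 was -0.93 (95% interval -1.48 to -0.39) there. In Flk1- cells it was -0.30 (-0.84 to 0.25), an interval that includes 0. The build is GRCm38.p6, each sequence is the 250 bases before the start, and capitals mark CAGGTG, the E-box letters that repressors of the Zeb and Snai families are known to bind, read on both strands as CAGGTG or CACCTG. The Spint1 stretch is chr2:119237110-119237359 on the plus strand and the Spint2 stretch is chr7:29281978-29282227 on the minus strand.
Spint1: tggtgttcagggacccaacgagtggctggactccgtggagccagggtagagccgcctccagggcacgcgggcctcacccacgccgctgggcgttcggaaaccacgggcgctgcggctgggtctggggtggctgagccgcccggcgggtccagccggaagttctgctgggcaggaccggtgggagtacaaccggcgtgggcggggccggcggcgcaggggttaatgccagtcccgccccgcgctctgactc
Spint2: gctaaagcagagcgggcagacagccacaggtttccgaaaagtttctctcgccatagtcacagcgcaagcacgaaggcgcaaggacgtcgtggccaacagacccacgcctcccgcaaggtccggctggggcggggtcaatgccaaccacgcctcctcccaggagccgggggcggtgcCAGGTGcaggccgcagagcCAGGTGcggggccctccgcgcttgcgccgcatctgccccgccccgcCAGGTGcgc

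The Spint2 stretch held the E-box letters 3 times, beginning 74, 55 and 9 bases before the start, and the Spint1 stretch held none. Of all 32851 windows of this length in the RefSeq table, 17.2% held at least 1 and 0.247% held 3 or more; the latter count was taken after the Spint2 stretch had been read. GGGCGG or CCGCCC, the GC box, occurred 3 times in each inhibitor's stretch. At least 1 was held by 32.7% of windows, and 3 or more by 8.47%. The ETS letters CCGGAA or TTCCGG occurred once in Spint1 and in 12% of windows. The TATA letters TATAAA or TTTATA, in 12.4% of windows, and the grainyhead letters AACNGGTT or AACCNGTT, in 1.79%, were in neither. The GC content was 72.8% for Spint1 and 69.6% for Spint2, against a median of 52.4% over the windows. The corresponding stretch of Tmprss2, chr16:97611196-97611445 on the minus strand, had a GC content of 61.6% and none of the 5 motifs. A match is a run of letters and not a measured site.

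Across the 24 arrays the 4 genes tracked each other unevenly. Pearson's r was 0.86 between St14 and Spint2, 0.76 between St14 and Spint1 and 0.75 between the inhibitors. Tmprss2 stood further off, at 0.61 with Spint2, 0.44 with St14 and 0.25 with Spint1. These are descriptions over arrays that share 6 group means and 1 reference. For the deviations of single arrays from their group mean, r between members ran from -0.28 to 0.17, so the likeness of the members to each other lay between the groups and not between replicates.

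The 5 named genes most like each member, by r over the 24 arrays, differed from member to member. For St14 they were Ovol2 (0.97), a zinc finger factor of epithelia, Crb3 (0.94), an apical polarity protein, Foxa2 (0.94), a factor of endoderm, Mt2 (0.93), a metallothionein, and Cldn3 (0.93), a tight junction claudin. For Spint2 they were Arhgef16 (0.91), Kdm4c (0.89), Nxt2 (0.89), Tpd52 (0.88) and Ovol2 (0.87), and St14 itself ranked 8 of 8972 other named genes. Without the 3 arrays r with Spint2 was 0.92 for Ovol2, 0.91 for Arhgef16 and 0.91 for St14, above the 0.86 of Tpd52, 0.84 of Nxt2 and 0.84 of Kdm4c, so that order rested on the 3 arrays. For Spint1 they were Klf5 (0.90), a zinc finger factor of epithelia and early embryos, Dedd2 (0.90), Wwc1 (0.88), Cbx7 (0.88) and Dyrk3 (0.88). With Spint1 these genes also varied together within groups. For deviations from group means r was 0.73, 0.91, 0.69, 0.75 and 0.42 in that order. In the lists of the other members this r ran from -0.22 (Tpd52 with Spint2) to 0.81 (Nxt2 with Spint2). For Tmprss2 they were Krt7 (0.91), a keratin of simple epithelia, Foxa1 (0.87), Cpm (0.86), Slc45a3 (0.85) and Igfbp2 (0.84). Ovol2 stood in the lists of both St14 and Spint2. Its group means were 1.48, 1.23 and 0.41 in Flk1- cells at 84 h, 95 h and 8 d and -0.09, -0.25 and -0.38 in Flk1+ cells, the same order as for St14.

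**Figure D4:**
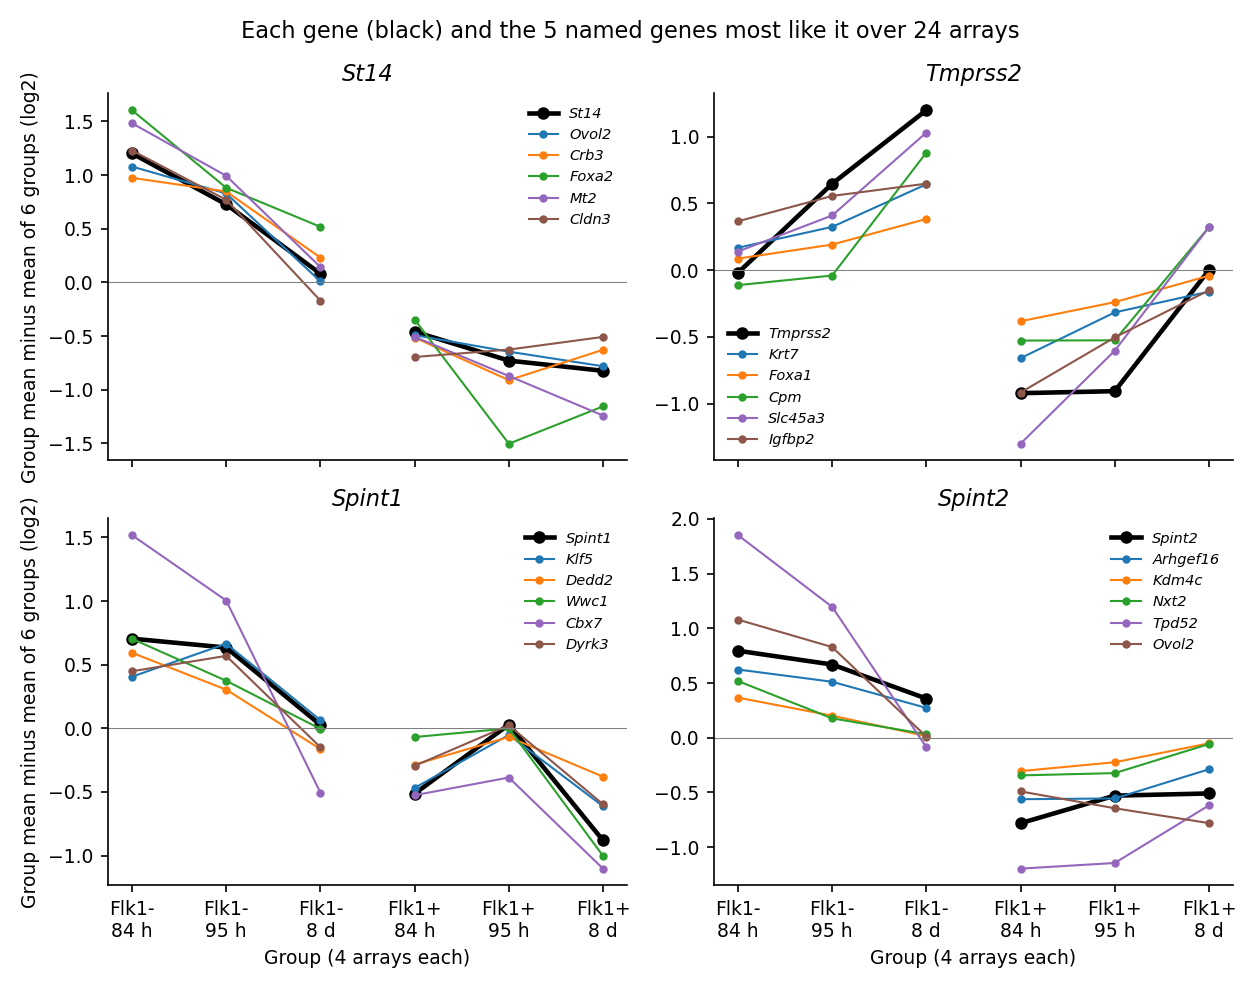
Mean log2 ratio of each group of 4 arrays minus the mean of the 6 groups (vertical axis), by sort and time (horizontal axis), for each member in black and its 5 most similar named genes in colour. The genes drawn with St14 are, like it, highest in Flk1- cells at 84 h, those drawn with Tmprss2 in Flk1- cells at 8 d.

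The wider proteolysis system was read from 6 lists of other proteases, substrates and inhibitors, of which 52 of 138 listed genes had a probe of 1 gene. A gene was called at an adjusted p under 0.05 in limma over all 17440 features. At 84 h, 3 of the 52 were higher and 5 lower in Flk1+ cells, near the shares over all features of 5.3% higher and 8.18% lower. Those higher were Pcsk5, a proprotein convertase, by 1.94, Masp1, a complement lectin pathway protease, by 0.85, and Aplp2, a Kunitz-domain membrane protein, by 0.23. Those lower were Epcam, a matriptase substrate, with a difference of -2.18, Met, the receptor of HGF, with -0.27, and the inhibitors Wfdc2, Serpini1 and Serpinb6a, with -1.11, -0.87 and -0.93. Without the 3 arrays 1 was called higher and 9 lower, and the calls of Masp1, Aplp2, Met and Serpinb6a were lost.

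At 95 h, 2 of the 52 were higher, Pcsk5 by 1.29 and Masp1 by 0.76, and 2 lower, Epcam with -1.69 and Met with -0.31; over all features 0.659% were higher and 1.37% lower. Without the 3 arrays the counts were 3 higher and 8 lower, and at an unadjusted p under 0.05 they were 3 and 14. At 8 d the limma fit called 2 lower, Dpp4, a membrane dipeptidyl peptidase, with -1.23, and F3, tissue factor, with -1.75, and 0 higher, where an unadjusted p under 0.05 was reached by 3 higher and 7 lower; without the 3 arrays 1 was called higher and 3 lower. The shares over all features were 0.149% higher and 0.224% lower. At 8 d Epcam differed by -1.14, with an adjusted p of 0.12 in limma and 4.95e-05 without the 3 arrays. Of the other type II transmembrane proteases, Hpn and Tmprss11a were measured, and neither was called in any of the 7 comparisons with all arrays. Tmprss11a differed by 0.75 between 95 h and 8 d in Flk1+ cells, with no overlap and an adjusted p of 0.073 in limma, or 0.038 without the 3 arrays. Prss8, the partner protease of matriptase, and F2rl1, a receptor it cuts, were not analysed here.

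From 95 h to 8 d, 20 of the 52 were higher and 4 lower in Flk1+ cells, against 12.8% and 9.31% of all features, and 13 were higher and 1 lower in Flk1- cells, against 9.88% and 7.78%. The median difference was 0.38 and 0.22 in these steps. Prss23, a secreted serine protease, rose by 2.94 and 2.91 in Flk1+ and Flk1- cells, Masp1 by 2.54 and 3.30, the thrombin receptor F2r by 1.86 and 1.74, Furin by 1.28 and 1.44, and Hgf, the growth factor activated by proteases that HAI-1 and HAI-2 inhibit, by 1.10 and 1.04. Those called lower included Epcam, with differences of -1.17 in Flk1+ and -1.73 in Flk1- cells, both without overlap. Htra2 was called lower in Flk1+ cells, with -0.40. The 4 members did not share 1 course. Between 95 h and 8 d Tmprss2 was higher in both sorts, and St14 and Spint1 had lower means in both. The St14 interval in Flk1+ cells included 0 (-0.37 to 0.18). Spint2 differed by 0.02 in Flk1+ cells (-0.31 to 0.35) and -0.31 in Flk1- cells (-0.65 to 0.02). With quantile normalization these Spint2 differences were -0.44 and -0.48.

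From 84 h to 95 h, 6 of the 52 were higher and 4 lower in Flk1+ cells, against 11.2% and 8.62% of all features, and 4 and 0 without the 3 arrays. In Flk1- cells limma called 1 higher and 0 lower, against 1.06% and 0.585%, with 7 higher and 1 lower at an unadjusted p under 0.05. Over all 8 lists, which add epithelial and mesenchymal genes to make 89 of 192 measured, the calls at 84 h, 95 h and 8 d numbered 26, 16 and 6 in the sort. Higher and lower in Flk1+ cells were 10 and 16 at 84 h, 4 and 12 at 95 h, and 0 and 6 at 8 d. The shares over all features also fell, from 5.3% and 8.18% to 0.659% and 1.37% and then 0.149% and 0.224%. The 95 h count of calls in the 8 lists was 26 with the replicate number as a block. Leaving out any 1 of the 8 d arrays other than Flk1+ array 2 lowered the 8 d count to between 1 and 3.

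**Figure D5:**
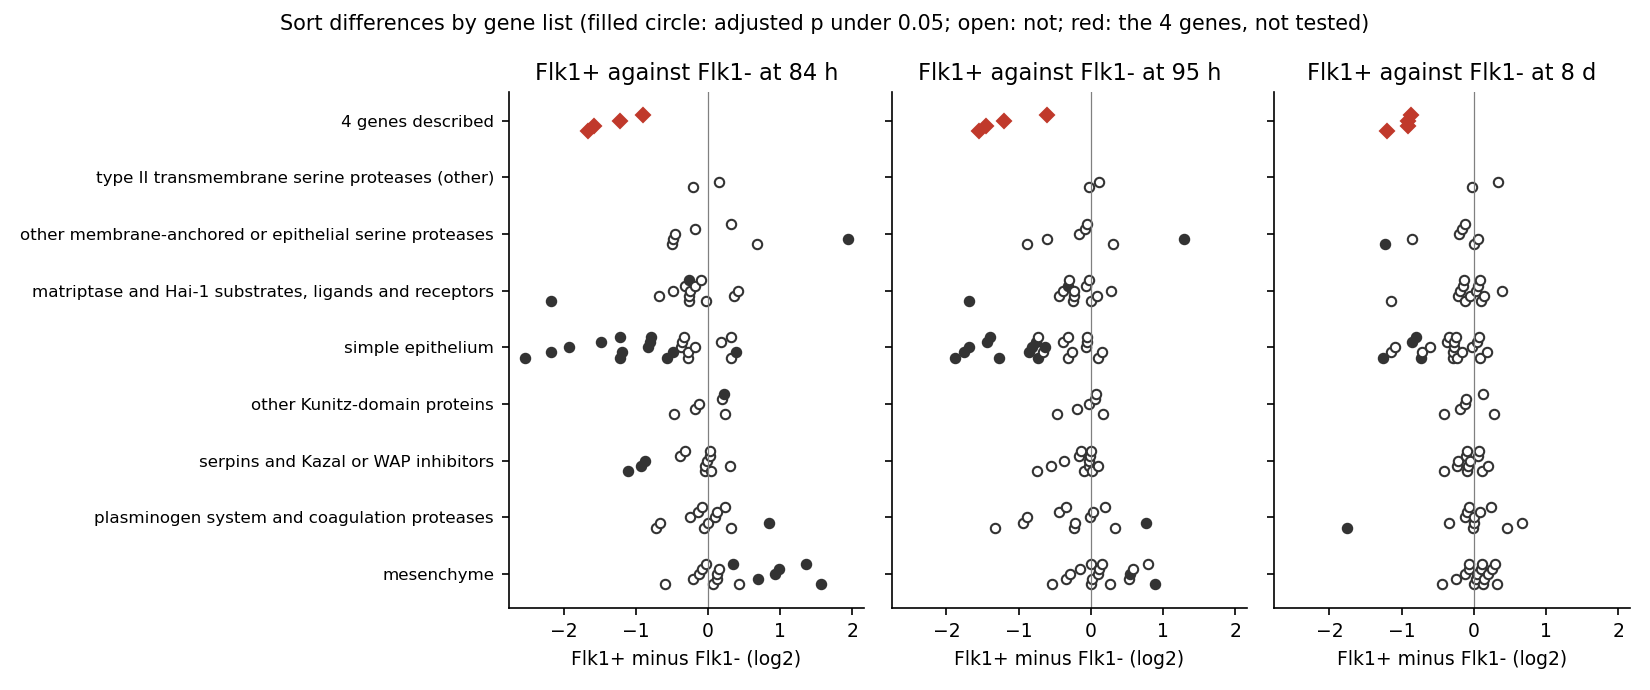
Difference in log2 ratio, Flk1+ minus Flk1- (horizontal axis), of each measured gene in the 8 fixed lists (vertical axis, 1 row a list) at 84 h, 95 h and 8 d, with filled circles for genes at an adjusted p under 0.05 in limma, open circles for the rest and red diamonds for the 4 members, which were not tested. The simple epithelium row has 12 filled circles left of 0 at 84 h, 11 at 95 h and 4 at 8 d.

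Of 22 measured genes of the simple epithelium list (35 listed), 12 were lower and 1 higher in Flk1+ cells at 84 h, against 8.18% and 5.3% of all features, and 10 were lower and 0 higher without the 3 arrays. At 95 h limma called 11 lower and 0 higher, against 1.37% and 0.659%, or 12 and 0 without the 3 arrays. At 8 d it called 4 lower and 0 higher, against 0.224% and 0.149%, with 18 not called, or 7 and 0 without the 3 arrays. At an unadjusted p under 0.05 the counts were 15 lower and 2 higher at 84 h, 15 and 0 at 95 h, and 9 and 0 at 8 d. Cdh1, E-cadherin, differed by -2.54, -1.88 and -1.09 at the 3 times, the last with an adjusted p of 0.33 in limma and 0.00588 without the 3 arrays. Crb3 differed by -1.49, -1.76 and -0.86.

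In time the epithelial list did not follow 1 course. In Flk1- cells limma called 2 higher and 0 lower from 84 h to 95 h (6 and 2 at an unadjusted p under 0.05), a step in which St14 had a lower level without overlap. From 95 h to 8 d, 9 were lower and 3 higher in Flk1- cells, against 7.78% and 9.88% of all features. Over that step St14 and Spint1 had lower means and Tmprss2 a higher one. In Flk1+ cells 4 were higher and 3 lower from 95 h to 8 d, against 12.8% and 9.31%.

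Of 16 measured mesenchyme genes, limma called 6 higher and 0 lower in Flk1+ cells at 84 h, 2 higher and 0 lower at 95 h, and 0 either way at 8 d. At an unadjusted p under 0.05 the counts were 6 higher and 2 lower, 6 and 0, and 1 and 1. The counts without the 3 arrays were 5, 4 and 0 higher, with 0 lower at each time. The shares of all features higher were 5.3%, 0.659% and 0.149%. Snai1, a repressor of epithelial genes, was higher by 1.56 at 84 h. At 8 d all 4 members had lower levels in Flk1+ cells without overlap, as had 6.89% of all features. Non-overlap is not the limma criterion, so the members and the mesenchyme counts are not set against each other.

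Levels of 7 lists of cell type markers are given beside the members. The mean of 12 pluripotency and epiblast genes ran from 1.49 to 1.59 on the Flk1- arrays at 84 h and from 0.27 to 0.73 on the Flk1+ arrays, and at 8 d from 0.07 to 0.32 and from -0.10 to -0.03. In limma 8 of the 12 were lower and 0 higher in Flk1+ cells at 84 h (4 lower without the 3 arrays), 4 lower and 0 higher at 95 h, and 0 either way at 8 d. At an unadjusted p under 0.05 they numbered 9 lower and 1 higher, 8 and 0, and 3 and 1. The mean of 13 endoderm genes was -0.71, -0.49 and -0.20 in Flk1- cells at 84 h, 95 h and 8 d, and -0.99, -0.93 and -0.82 in Flk1+ cells. Its genes went both ways at 84 h, with 3 higher and 3 lower in Flk1+ cells. At 95 h 2 were lower, and at 8 d 3, with 0 higher at either time. The endoderm counts at an unadjusted p under 0.05 were 5 lower and 3 higher at 84 h, 4 and 1 at 95 h, and 9 and 0 at 8 d. For both lists the shares of all features called in limma were 5.3% higher and 8.18% lower at 84 h, 0.659% and 1.37% at 95 h, and 0.149% and 0.224% at 8 d.

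Other lists had higher means in Flk1+ cells at 84 h. The mean of 7 mesoderm genes was 1.55 in Flk1+ and 0.52 in Flk1- cells, that of 8 trophoblast genes 0.47 and -0.07, and that of 9 endothelial genes -0.61 and -0.90. The mesoderm and trophoblast lists both name Hand1, so they are not fully separate lists, and a higher trophoblast mean does not by itself mark trophoblast cells. The endothelial list includes Kdr, the gene of the sort, so its means differ in part through the sort itself. The median difference of the endothelial genes at 84 h was 0.16, or -0.09 without the 3 arrays. At 8 d the means were 0.98 and 1.01 for mesoderm, 0.09 and 0.11 for trophoblast, and -0.06 and -0.77 for endothelium. In the same order of sorts, the mean of 6 blood genes was -0.09 and -0.07 at 84 h and 0.33 and 0.60 at 8 d, and that of 6 neural genes -1.42 and -1.06, then -1.35 and -1.26. The part of these cell types in the differences of the 4 genes was not tested.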

How the data were processed

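Expression was measured on 24 Agilent 2-colour arrays, 4 in each of 6 groups; the labels give Cy5 to the sorted cells and Cy3 to the pup reference, with no dye swap. The deposited values are log ratios per probe, read here as log2 of Cy5 over Cy3; the log base, normalization and background correction are not given in the sources used here, and no channel signals were used, so dim spots could not be told from bright ones. The direction was checked on marker lists: 7 of 8 newborn pup genes had a mean below 0 and 12 of 12 stem cell genes above 0. Array medians as deposited were 0.046 to 0.197 and were set to 0. Of 20280 probes, 11813 had 1 gene in the platform annotation, 559 several and 7908 none; probes of 1 gene were averaged, giving 17440 features. The number of arrays limits the precision.

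One limma model (version 3.58.1, R 4.3.3) with 6 group means was fitted to all features, with moderated standard errors (18 residual and 3.41 prior degrees of freedom) and Benjamini-Hochberg adjustment over all features; it was tested on simulated data. The members and lists were chosen with earlier results of these data known, so members have 95% intervals and no p-value. Intervals for the difference between 2 genes on 1 array did not come from limma. They used an unmoderated SD pooled over the 6 groups, with 18 degrees of freedom. Named genes were the members, genes of the fixed lists, the 5 most like each member over 24 arrays, Kdr, and the known partners Prss8, Epcam and F2rl1. Same-numbered arrays of both sorts deviated together at 95 h (r 0.11 to 0.42) and at 8 d (0.15 to 0.44) and, for 3 of 4 numbers, at 84 h (0.31 to 0.53, with -0.13 for number 2, whose Flk1+ array is one of those set apart); the labels do not say what a number marks. Alternatives were the values as deposited, quantile normalization, 1 probe a gene, only the arrays compared, leaving out arrays, array weights, a replicate block and a filter on spread. Promoters came from a RefSeq table (GRCm38.p6), which matched 3 of the 4 members. Figures were drawn with matplotlib 3.10.9.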

Additional observations from a re-analysis of the deposited data

How the results depend on the processing

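All 192 sort differences of the 4 genes under the alternatives were below 0, and 183 moved by less than 1 SD. Many of these could not move, so the counts overstate how far the alternatives agree. For a member with 1 probe, the choice of probe, the replicate block, the filter on spread and the fit of only the arrays compared return the same difference. Leaving out the 3 arrays of 84 h likewise leaves the differences at 95 h and 8 d as they were. Of all 448 member values, 21 changed sign, all in differences between times. Quantile normalization gave sort differences at 8 d of -1.24 (St14), -1.27 (Spint1), -1.06 (Spint2) and -1.41 (Tmprss2), and -1.16 for Spint2 at 84 h; for 8 d against 95 h in Flk1+ cells it gave -0.46 (St14), -1.20 (Spint1) and -0.44 (Spint2). Without the 3 arrays apart, the 84 h differences were -0.79 (Spint1) and -1.21 (Spint2), and with array weights -0.88 and -1.23. Spint2 in Flk1+ cells at 95 h against 84 h turned to -0.06 under quantile normalization and to -0.063 without the 3 arrays. Called list genes in the sort (26, 16 and 6) became 13, 10 and 18 with only the 8 arrays compared, 26 at 95 h and 10 at 8 d without the 3 arrays, and 33 at 8 d with array weights. In Flk1+ cells at 95 h against 84 h the 16 calls became 8 under quantile normalization, 6 without the 3 arrays, 4 with array weights and 0 with 8 arrays. In Flk1- cells the 6 calls of that step became 12, 20 and 1 under the last 3 of these, and the 33 calls of 8 d against 95 h became 51 with array weights. The replicate block gave 26 at 95 h in the sort, and 27 and 15 for the early steps in Flk1+ and Flk1- cells. Leaving out each replicate gave 1 to 4 calls in the sort at 8 d, 7 to 23 in Flk1+ cells at 95 h against 84 h and 1 to 6 in Flk1- cells. The causes were not tested. Without channel signals, how far dim spots compress these ratios is unknown.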
